A study of Homo sapiens with 8 samples.

Results

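The heat shock proteins and cytosolic chaperones of HuH7 cells were described through 10 genes, namely HSF1, HSPA6, HSPA1A, HSPA1B, HSPA8, HSPH1, HSPB1, DNAJB1, BAG3 and HSP90AA1, out of 15767 genes in the count table. The 10 were chosen by symbol as HSF1, HSF1 targets and cytosolic chaperones, with HSPA6 set against the other 9. Earlier results on these libraries were known when they were chosen. All 10 were present and all 10 passed the filter on low counts (10 or more counts in 4 or more libraries), as did 12910 genes in all. HuH7 is an established human hepatoma line, labelled here as wildtype. RNA-seq was done on 8 libraries, 4 from cells that received DMSO alone (I/R+DMSO) and 4 from cells that received ginsenoside Rk2 at 20 µM, dissolved in DMSO (I/R+Rk2). Cells of both groups had first gone through 6 h at 1% oxygen without glucose, the deprivation step of oxygen-glucose deprivation and reperfusion (OGD/R), and DMSO or Rk2 was present for the 6 h of reoxygenation that followed. Every comparison is therefore between 2 sets of OGD/R cells of 1 tumour line, with no cells kept in normal oxygen and glucose. The comparison asks how Rk2 during reoxygenation altered the mRNA of the cytosolic folding machinery. The labels do not say whether the 4 libraries of a group came from separate cultures, so the spread between them may be technical.

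Heat shock proteins are chaperones that bind unfolded or misfolded proteins and use cycles of ATP, or in the case of the small heat shock proteins no ATP at all, to keep them soluble or refold them. HSF1, the master transcription factor of the heat shock response, is held inactive by chaperones and released when unfolded protein draws them away, after which it forms trimers, binds heat shock elements in promoters and raises transcription of chaperone genes. In liver cells, heat, oxidants, energy loss and reoxygenation are all known to engage this response.

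HSF1 trimers recognise repeats of GAA and its reverse complement TTC, spaced by any 2 bases, so a pair of units reads GAANNTTC or TTCNNGAA, and the full element has 3 alternating units. Both 8-letter patterns are their own reverse complements, so a search of 1 strand covers both, and the 2 patterns overlap by 1 unit in a full element. Windows of 300 bases around annotated starts (250 before and 50 after, RefSeq, GRCh38.p14) were searched for the 9 members other than HSF1. A pair was found for 7 of the 9 genes and a full element for 3 of 9 (HSPA6, HSPA8 and HSP90AA1). Over all genes with a window, 16.2% of 27305 had a pair and 0.608% a full element. Over all 35116 windows the shares were 13.5% and 0.490%. Members were chosen in part as HSF1 targets, so nothing is read from their shares. The 250 bases before the start are shown for 4 members, picked with their values in view. HSPA6, HSP90AA1 and HSPA8 all hold the full element, at log2 fold changes of −1.46, 0.45 and −0.10 (I/R+Rk2 over I/R+DMSO). By counts the groups overlapped for HSP90AA1 and HSPA8. In HSPA1A, the close relative of HSPA6 that was higher in I/R+Rk2, this search found 1 pair alone. It finds only exact units spaced by 2 bases, so an element with a gap or a changed unit is missed. Each is printed 5′ to 3′ on the gene's own strand, and capitals mark the GAA and TTC units of every pair found.
HSPA6: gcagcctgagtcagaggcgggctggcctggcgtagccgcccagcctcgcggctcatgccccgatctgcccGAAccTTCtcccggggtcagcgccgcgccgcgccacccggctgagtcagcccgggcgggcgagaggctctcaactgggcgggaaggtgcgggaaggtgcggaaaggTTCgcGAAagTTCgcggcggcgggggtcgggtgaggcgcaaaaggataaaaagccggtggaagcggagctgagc
HSPA1A: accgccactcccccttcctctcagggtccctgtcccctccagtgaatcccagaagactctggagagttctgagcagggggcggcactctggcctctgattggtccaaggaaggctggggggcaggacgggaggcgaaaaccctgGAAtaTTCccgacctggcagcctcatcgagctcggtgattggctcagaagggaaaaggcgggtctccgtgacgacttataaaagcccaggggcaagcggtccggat
HSPA8: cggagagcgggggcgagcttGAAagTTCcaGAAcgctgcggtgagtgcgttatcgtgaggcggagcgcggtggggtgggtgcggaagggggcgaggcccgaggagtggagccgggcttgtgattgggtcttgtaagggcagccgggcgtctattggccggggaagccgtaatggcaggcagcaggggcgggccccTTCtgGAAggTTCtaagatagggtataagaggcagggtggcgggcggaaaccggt
HSP90AA1: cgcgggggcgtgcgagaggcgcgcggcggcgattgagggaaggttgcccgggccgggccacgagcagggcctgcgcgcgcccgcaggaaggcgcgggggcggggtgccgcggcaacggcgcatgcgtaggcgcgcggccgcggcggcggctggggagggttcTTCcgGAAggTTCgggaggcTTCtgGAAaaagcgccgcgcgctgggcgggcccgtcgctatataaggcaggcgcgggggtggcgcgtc
They lie at chr1:161524290-161524539 (HSPA6, plus strand), chr6:31815293-31815542 (HSPA1A, plus strand), chr11:123062137-123062386 (HSPA8, minus strand) and chr14:102087045-102087294 (HSP90AA1, minus strand). In HSPA6 the pairs began 180, 74 and 69 bases before the start, the last 2 overlapping as a full element. The single pair in HSPA1A began 106 bases before the start, and that in HSPA1B 105 bases before it. HSPA8 held 2 full elements, with pairs beginning 230, 225, 55 and 50 bases upstream, and HSP90AA1 held pairs at 88, 83 and 68 bases. The other HSP90AA1 window, at chr14:102139700-102139999, held none, so the matches belong to 1 of its 2 starts. The HSPB1 window had 1 pair, 182 bases upstream, and of 3 DNAJB1 windows 1 had pairs at 77 and 47 bases, 1 had a pair just after the start and 1 had none. No pair was found in the windows of BAG3 and HSPH1, which says only that these letters are not in those 300 bases. A match is a description of the sequence and not evidence of binding.

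The annotation used for gene positions was GENCODE v29 on GRCh38, the assembly that the submitters' processing notes call hg38. HSPA6 (chr1:161524540-161526910), HSPA1A (chr6:31815464-31817946) and HSPA1B (chr6:31827735-31830255) are each a single exon on the plus strand. HSPA8 (chr11:123057489-123063230, minus strand) has 9 exons, HSPH1 (chr13:31134974-31162388, minus strand) 18, HSPB1 (chr7:76302544-76304295, plus strand) 3, DNAJB1 (chr19:14514770-14529770, minus strand) 3 and BAG3 (chr10:119651370-119677819, plus strand) 4 in the longest coding transcript. The coding sequences of HSPA1A and HSPA1B were 99.8% identical (1919 of 1923 bases), with 1 identical run of 1709 bases, so how their reads were divided is uncertain. HSPA6 was 98.6% identical to HSPA7, an unprocessed pseudogene at chr1:161606291-161608217 that is listed in neither table, with a longest identical run of 310 bases. Against HSPA1A and HSPA8 the identity of HSPA6 was 81.6% and 73.2%, with identical runs of at most 34 and 20 bases. HSPA1B overlaps exons of AL671762.1 and HSPA8 those of SNORD14C and SNORD14D on the same strand, so those reads cannot be told apart by strand. DNAJB1 shares exonic bases with TECR and MIR639 on the opposite strand and HSP90AA1 with WDR20, and whether strand was used in counting is not given in the sources used here, so reads of these pairs cannot be told apart.

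Total counts were 18407900 to 21422700 in I/R+DMSO and between 16357100 and 30277000 in I/R+Rk2. The hepatocyte markers AFP and ALB averaged 5935 ± 303 and 2287 ± 69.6 CPM (counts scaled to library depth, with depth adjusted by the trimmed mean of M values, TMM) in I/R+DMSO and 5937 ± 112 and 2305 ± 34.97 in I/R+Rk2. All 8 hepatocyte markers looked at were detected and summed to 10369 to 11358 CPM in I/R+DMSO and between 11209 and 11635 in I/R+Rk2. Of the 8, APOB rose from 1057 ± 180.2 to 1616 ± 135 CPM (log2 fold change 0.61, adjusted p = 0.0124 in edgeR), and APOA1 was at −0.22 on the log2 scale with separate groups (adjusted p = 0.0725 in edgeR). Of 10 markers of other liver cell types, PTPRC and VWF are not in the count table, ACTA2 and STAB2 had at most 3 counts in any library, and all that are in the table summed to 761 to 817 CPM in I/R+DMSO and between 703 and 796 in I/R+Rk2, most of it from LYZ. KRT19, a bile duct marker, fell from 62.8 ± 5.20 to 43.0 ± 1.95 CPM (log2 fold change −0.55, adjusted p = 0.00204 in edgeR), and the part of APOB and KRT19 in the results was not tested. In bulk libraries fewer cells with a transcript and less of it per cell cannot be told apart.

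Per length, HSPA8 was the most abundant of the 10 and HSPA6 the least, and the distance between HSPA6 and the other inducible HSP70 genes was wider in I/R+Rk2. On the deposited FPKM scale (fragments per kilobase of transcript, scaled to depth), I/R+DMSO means ran from 1752 ± 43.02 for HSPA8 (SD, n = 4) through 495 ± 38.3 for HSP90AA1, 261 ± 28.6 for HSPB1 and 183 ± 16.9 for HSPA1A. They continued with 145 ± 13.3 for DNAJB1, 131 ± 11.5 for HSPA1B, 84.6 ± 5.26 for HSPH1, 43.8 ± 7.06 for HSF1, 39.6 ± 1.08 for BAG3 and 8.51 ± 3.53 for HSPA6. Among neighbours in this order, DNAJB1 and HSPA1B overlapped between libraries and so did HSF1 and BAG3, whereas every other neighbouring pair was separated. In I/R+Rk2 the means were 1635 ± 70.2 for HSPA8, 646 ± 18.9 for HSP90AA1, 248 ± 8.56 for HSPB1, 239.6 ± 5.29 for HSPA1A and 169.5 ± 4.33 for HSPA1B. They were 161 ± 6.97 for DNAJB1, 102 ± 2.34 for HSPH1, 48.5 ± 1.25 for BAG3, 47.3 ± 4.44 for HSF1 and 3.18 ± 0.638 for HSPA6. There HSPB1 overlapped HSPA1A, HSPA1B overlapped DNAJB1 and BAG3 overlapped HSF1. The 10 together took 0.607% to 0.655% of all counts in I/R+DMSO and between 0.671% and 0.749% in I/R+Rk2, ranges that do not overlap. These sums include HSP90AA1, with 24592 to 74814 reads per library, whose counts and FPKM gave different pictures, as described below. Nothing is read from the gap, because this contrast was in view when the 10 were chosen.

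**Figure D1:**
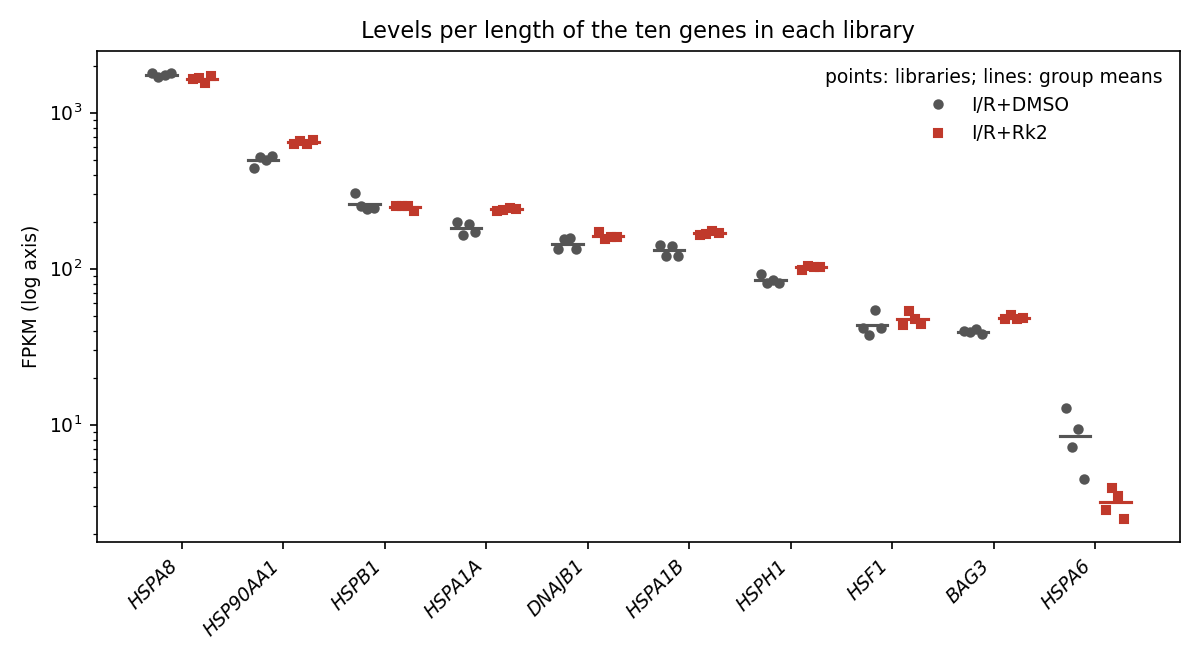
FPKM (log axis) of the 10 genes in each of the 8 libraries, with a horizontal bar at the mean of each group of 4. HSPA6 lies lowest, at 4.51 to 12.9 FPKM in I/R+DMSO and between 2.48 and 3.91 in I/R+Rk2, and HSPA8 highest in every library.

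HSPA6, a stress-inducible HSP70 found in humans but not in mice and kept very low in unstressed cells, was the member with the largest difference and the one that went furthest down. It measured 37.5, 20.7, 27.05 and 12.8 CPM in I/R+DMSO replicates 1 to 4 and 8.09, 10.97, 9.74 and 6.93 in I/R+Rk2 replicates 1 to 4. The lowest I/R+DMSO library, replicate 4, stood above the highest I/R+Rk2 library, replicate 2, so the groups did not overlap. Means were 24.5 ± 10.4 and 8.93 ± 1.78 CPM (SD, n = 4), a log2 fold change of −1.46 (SE 0.318) by edgeR, or 2.75-fold lower in I/R+Rk2. The spread within I/R+DMSO was also the widest of the 10, with a coefficient of variation of 42.5% against 3.25% to 26.1% for the other 9. These values rest on 274 to 706 reads in each I/R+DMSO library and 137 to 247 in each I/R+Rk2 library. In FPKM the same libraries gave 12.9, 7.24, 9.45 and 4.51 in I/R+DMSO and 2.85, 3.91, 3.47 and 2.48 in I/R+Rk2, in the same order within each group as in CPM.

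HSPA1A and HSPA1B, the paired genes of the major stress-inducible HSP70, went the other way from HSPA6. HSPA1A measured 571, 462, 539 and 473 CPM in I/R+DMSO and 650.4, 649.8, 664 and 657 in I/R+Rk2. All 4 I/R+Rk2 libraries lay above all 4 I/R+DMSO libraries, at 655 ± 6.67 against 511 ± 52.6 (SD, n = 4), a log2 fold change of 0.36 (SE 0.0691). HSPA1B measured 439, 367, 427 and 367 CPM in I/R+DMSO and 496, 500.1, 519.6 and 505 in I/R+Rk2, with a log2 fold change of 0.34 (SE 0.0662). Its groups were again separate, and for both genes replicates 1 and 3 of I/R+DMSO were the higher ones. Since the copies are nearly identical, their counts were also summed, which gave 912 ± 90.7 CPM in I/R+DMSO and 1160.5 ± 16.7 in I/R+Rk2 and a log2 fold change of 0.35 (SE 0.0676). The ratio of HSPA1A to HSPA1B in FPKM was 1.37 to 1.41 in I/R+DMSO and between 1.41 and 1.42 in I/R+Rk2. For every 1000 reads of HSPA1A and HSPA1B there were between 15.3 and 37.1 reads of HSPA6 in I/R+DMSO and between 5.97 and 9.54 in I/R+Rk2, with no overlap.

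HSPA8 (HSC70) is the constitutive cytosolic HSP70, which folds new proteins and uncoats clathrin vesicles. It measured 2721, 2480.2, 2531 and 2601 CPM in I/R+DMSO and 2421, 2388, 2362 and 2480.2 in I/R+Rk2, at means of 2583 ± 105 and 2413 ± 51.01. I/R+DMSO replicate 2 equalled I/R+Rk2 replicate 4 to within 1 CPM, so the groups met, and the log2 fold change was −0.10 (SE 0.0389). HSPH1 (HSP105), an HSP110 that acts as a nucleotide exchange factor for HSP70 and works with it in pulling proteins out of aggregates, measured 385, 340.2, 360.0 and 357 CPM in I/R+DMSO and 428, 439, 441 and 447 in I/R+Rk2. The groups were separate, at 361 ± 18.5 and 439 ± 7.75, and the log2 fold change was 0.28 (SE 0.0431), which was 0.19 after a gene length correction and then did not pass the threshold.

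The partners that steer HSP70 were split in how cleanly the groups parted. DNAJB1 (HSP40), the J-domain protein that delivers clients to HSP70 and stimulates its ATPase, measured 362, 414, 417 and 346 CPM in I/R+DMSO and 454, 377, 412 and 413 in I/R+Rk2. The groups overlapped, I/R+Rk2 replicate 2 being below 2 of the I/R+DMSO libraries, and the log2 fold change was 0.11 (SE 0.0794). BAG3, which links HSP70 to small heat shock proteins and to selective autophagy, measured 123, 119, 123 and 115 CPM in I/R+DMSO and 143, 148, 139 and 142 in I/R+Rk2. It had the smallest scatter of the 10 in I/R+DMSO, at 119.8 ± 3.89 against 143 ± 3.90 CPM, and its groups were separate, with a log2 fold change of 0.26 (SE 0.0393). HSPB1 (HSP27), a small heat shock protein that holds unfolding proteins and protects actin, measured 343, 278, 268 and 264 CPM in I/R+DMSO and 269.8, 265, 262 and 245 in I/R+Rk2. Replicate 1 of I/R+DMSO stood above the other 7 libraries, the groups overlapped, and the log2 fold change was −0.15 (SE 0.0851), or −0.05 without that library.

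HSP90AA1 encodes the stress-inducible form of HSP90, the dimeric chaperone that matures kinases and steroid receptors, and it gave different pictures on the 2 deposited scales. By counts it measured 1306, 2018, 1423 and 1467 CPM in I/R+DMSO and 2450.5, 2494, 1732 and 1821 in I/R+Rk2. I/R+DMSO replicate 2 was above I/R+Rk2 replicates 3 and 4, so the groups overlapped, at 1553 ± 317 and 2125 ± 404 CPM, with a log2 fold change of 0.45 (SE 0.174). By FPKM it measured 441, 519, 497 and 525 in I/R+DMSO and 629, 657, 631 and 667 in I/R+Rk2. On that scale the groups were separate, I/R+DMSO replicate 2 lay inside its group, and the log2 fold change was 0.39 on log2(FPKM + 1) with limma. The length in kilobases that the 2 tables together imply, counts over FPKM at the depth of each library, came to 2.90, 3.87, 2.82 and 2.78 in I/R+DMSO and 3.93, 3.84, 2.78 and 2.77 in I/R+Rk2. The 3 libraries near 3.9 kb were I/R+DMSO replicate 2 and I/R+Rk2 replicates 1 and 2, and the highest of the 8 was 1.42 times the lowest. For 10714 genes with at least 50 counts in every library the median of this ratio was 1.24, and 70.3% of them had a smaller one than HSP90AA1. The gene (chr14:102080738-102139699, minus strand) has long coding transcripts of 3510 and 3379 bases with first bases at 102139686 and 102087191. The part of these transcripts in the difference between the scales was not tested.

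**Figure D2:**
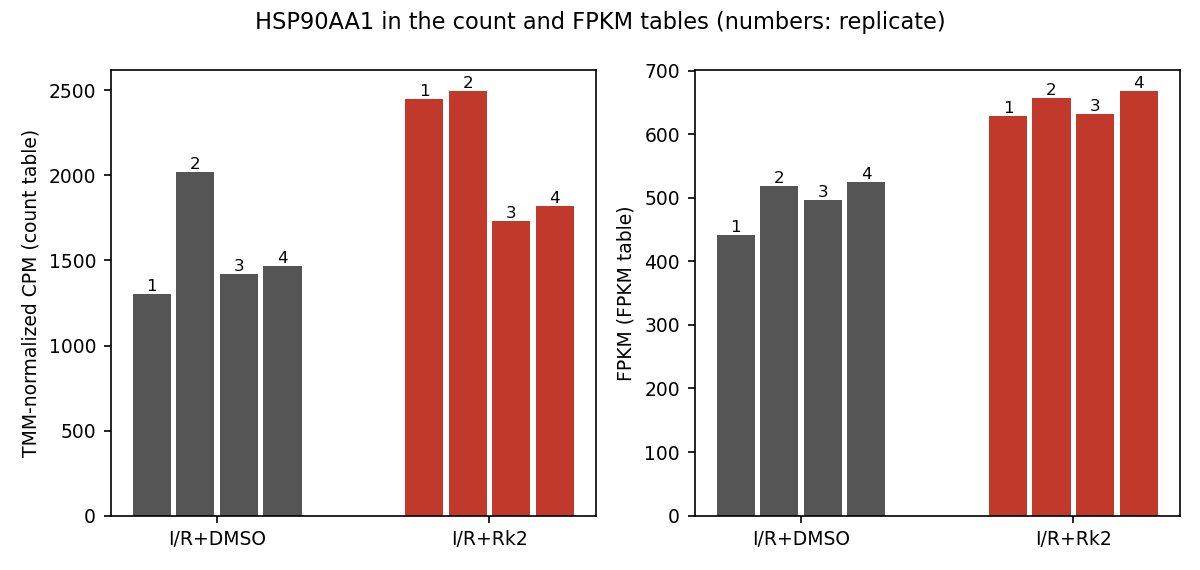
HSP90AA1 in each of the 8 libraries as CPM and as FPKM. The CPM of I/R+DMSO replicate 2 (2018) falls among the I/R+Rk2 libraries and its FPKM (519) does not.

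HSF1 itself differed by less than its spread. It measured 87.3, 78.4, 136 and 91.4 CPM in I/R+DMSO and 109.8, 108, 99.1 and 94.1 in I/R+Rk2. I/R+DMSO replicate 3 was the highest of all 8 and the other 3 I/R+DMSO libraries were below all 4 of I/R+Rk2, so the groups overlapped. Means were 98.3 ± 25.7 and 103 ± 7.31 CPM, with a log2 fold change of 0.06 (SE 0.164), which ran from −0.03 without I/R+DMSO replicate 2 to 0.26 without I/R+DMSO replicate 3. HSF1 acts mainly through its protein being activated, which mRNA does not show. HSF2, a related factor that forms mixed trimers with HSF1, was at 0.07 on the log2 scale (adjusted p = 0.466 in edgeR's quasi-likelihood test with Benjamini-Hochberg adjustment). HSBP1, a small protein that binds HSF1 trimers, was at −0.18 (adjusted p = 0.0819 in edgeR), and HSF4 at 0.27 (adjusted p = 0.486 in edgeR). HSBP1 was at −0.42 with the gene length correction and −0.24 without I/R+Rk2 replicate 1, and was past the threshold in both.

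Set side by side, 4 of the 10 were higher in I/R+Rk2 past the threshold used across all genes, an adjusted p below 0.05 (HSPA1A, HSPA1B, HSPH1 and BAG3), and 1 was lower (HSPA6). HSPA6 was no longer past the threshold without I/R+Rk2 replicate 1 or 4, at log2 fold changes of −1.41 and −1.36, nor with unfiltered limma on log2(FPKM + 1), at −1.12. Over all 12910 genes tested 18.2% were past it, 11% higher and 7.24% lower, and nothing is read from the members' count because this contrast was in view when they were chosen. By the same description the groups of 4 were separate for 5 of the 10, against 28.2% of all genes. The median log2 fold change of the 10 was 0.18, that of the 9 without HSPA6 was 0.26 and that of all genes was −0.00. HSPA6 lay −1.71 on the log2 scale from the median of the other 9, and between −1.91 and −1.44 when any 1 library was left out. The split of all called genes was 60.2% higher, but 48.8% with upper-quartile scaling, 70.6% with library size alone, 45.2% with a gene length correction and 72.3% with limma on log2(FPKM + 1). The 7 members with positive values and the 3 with negative values had the same signs under each of these scalings.

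**Figure D3:**
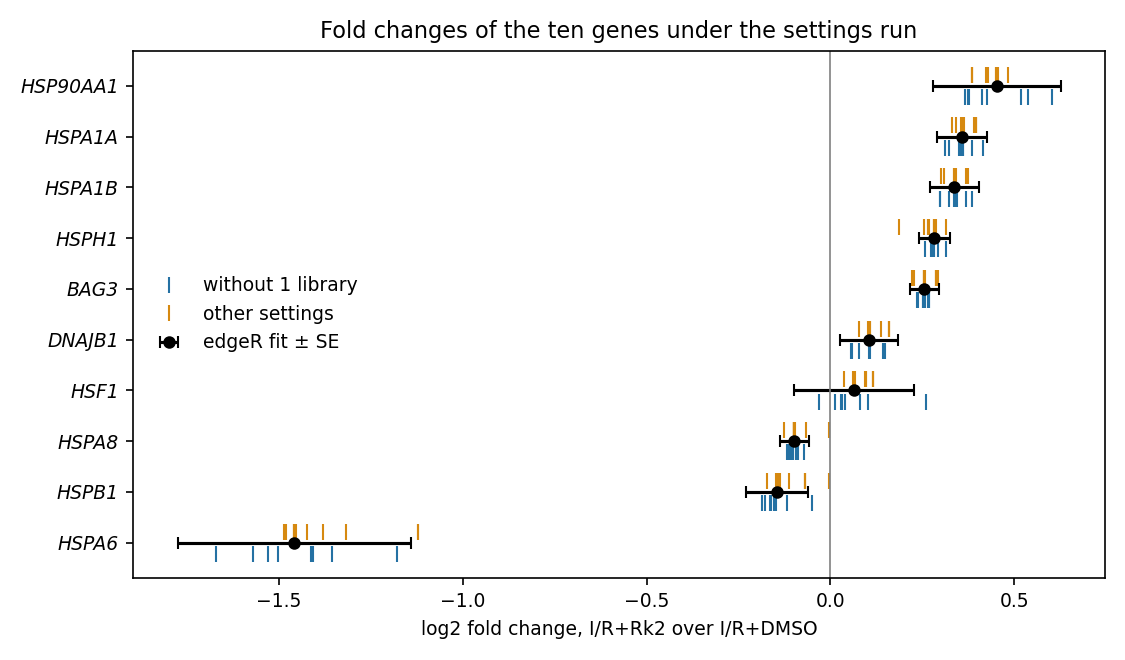
Log2 fold change (I/R+Rk2 over I/R+DMSO) of the 10 genes. Points with bars are the edgeR fit and 1 SE, lower ticks the fits without 1 library and upper ticks the other settings run. HSPA6 sits at −1.46 and the other 9 between −0.15 and 0.45.

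The rest of the HSP70 and HSP110 family, from a list compiled by hand, had 1 gene past the threshold. Of 8 listed genes outside the 10, 7 were tested, 1 rose and none fell (14.3% called, against 18.2% of all genes), with a median log2 fold change of 0.07. HSPA4L (APG1), an HSP110 of the cytosol, rose from 34.9 ± 5.55 to 48.4 ± 1.995 CPM (log2 fold change 0.47, adjusted p = 0.0248 in edgeR), a call that was lost without I/R+Rk2 replicate 1, 3 or 4 and in all 3 limma fits on FPKM. HSPA4, another HSP110, was at 0.07 on the log2 scale (adjusted p = 0.164 in edgeR), and at −0.06 with the gene length correction. HSPA1L, which neighbours HSPA1A and is known mainly from testis, was at 0.21 (adjusted p = 0.0720 in edgeR), with its 2 groups separate. HSPA14, which works on the ribosome, was at −0.18 (adjusted p = 0.161 in edgeR). The distant relatives HSPA12A and HSPA12B had values of 0.43 (adjusted p = 0.121) and −0.28 (adjusted p = 0.329) in the edgeR fit. HSPA2, the testis-enriched HSP70, was at −2.12 on the log2 scale (adjusted p = 0.145 in edgeR), a value set by 1 library, I/R+DMSO replicate 2, with 1080 reads against 56 to 106 in the other 7. Without that library the log2 fold change of HSPA2 was −0.24.

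Over all chaperone lists together, 101 genes outside the 10 were listed, 97 were in the count table and 93 were tested. Of these 7 rose, 10 fell and 76 did not pass, which is 18.3% called against 18.2% of all genes, with a median log2 fold change of −0.10. The 17 became 11 without replicate 2 and 10 without replicate 3 of I/R+DMSO, and 9, 9, 9 and 8 without replicates 1, 2, 3 and 4 of I/R+Rk2. Among J-domain proteins outside the 10, 2 of 15 rose and none fell. DNAJB4, a heat-inducible relative of DNAJB1, rose from 28.4 ± 2.09 to 54.4 ± 1.45 CPM (log2 fold change 0.94, adjusted p = 1.4e-04 in edgeR) with separate groups. DNAJC13, which acts on endosomes, rose with a log2 fold change of 0.44 (adjusted p = 0.0120 in edgeR), or 0.24 with the gene length correction. Among the BAG family and other exchange factors 1 of 6 fell, HSPBP1, which strips nucleotide from HSP70 and blocks its ubiquitin ligase partner. It was at −0.36 (adjusted p = 0.0146 in edgeR), or −0.25 with the gene length correction.

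HSP90 and its co-chaperones had 2 of 24 genes that rose and 4 that fell outside the 10 (25% called, against 18.2% of all genes), with a median of −0.09. HSP90AB1, the constitutive HSP90, fell from 2784 ± 36.3 to 2558 ± 41.2 CPM (log2 fold change −0.12, adjusted p = 0.0265 in edgeR), a call that was kept in only 2 of 8 fits with a library left out, those without I/R+DMSO replicate 1 or 4. CHORDC1, an HSP90 partner that is itself a target of HSF1, rose from 46.7 ± 7.65 to 74.2 ± 7.45 CPM (log2 fold change 0.67, adjusted p = 0.00913 in edgeR). RPAP3, of the complex that assembles RNA polymerase with HSP90, rose by 0.29 on the log2 scale (adjusted p = 0.0262 in edgeR), and FKBP4, an immunophilin of steroid receptor complexes, fell by 0.15 (adjusted p = 0.0398 in edgeR). Both were called in 2 of 8 fits with a library left out, those without I/R+DMSO replicate 1 or 4. TTC4, an adaptor between HSP90 and HSP70, fell with −0.31 (adjusted p = 0.00465 in edgeR). SGTA, which hands tail-anchored proteins on for insertion or disposal, fell with −0.24 (adjusted p = 0.00923 in edgeR). In all 3 limma fits on FPKM the calls of CHORDC1 (0.55 to 0.57) and SGTA (−0.19) were lost, as were those of HSP90AB1, RPAP3 and FKBP4.

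Other HSF1 targets from a hand-compiled list, which shares genes with the lists above, had 2 of 21 that rose and 3 that fell (23.8% called, against 18.2% of all genes). Among the small heat shock proteins 4 were tested outside the 10, and HSPB3, HSPB7, HSPB9 and CRYAA were not, with at most 13 counts in any library. HSPB8, the partner of BAG3, rose with a log2 fold change of 0.27 (adjusted p = 0.0179 in edgeR), a call lost without I/R+Rk2 replicate 2. CRYAB (alpha B-crystallin) fell with −0.86 (adjusted p = 0.0432 in edgeR) on 44 to 114 reads per library, its groups overlapped, and it was called in 1 of 8 fits with a library left out, the one without I/R+DMSO replicate 4. Of the CCT chaperonin, which folds actin and tubulin, and its helper prefoldin, 16 genes were tested and 2 fell (12.5% called), with a median of −0.16. Of the 16, 1 had a positive value in the edgeR fit, against 6410 of all 12910 genes. With limma on log2(FPKM + 1) more of the 16 were positive, at 0.03 to 0.28, and the rest stayed negative. The 2 were PDCL3, a phosducin-like CCT cofactor, at −0.31 (adjusted p = 0.0373 in edgeR), and PFDN6, a prefoldin subunit, at −0.26 (adjusted p = 0.0480 in edgeR). PDCL3 was called in 1 of 8 fits with a library left out (without I/R+DMSO replicate 2) and PFDN6 in 0 of 8. With the gene length correction PDCL3 was at −0.22 and PFDN6 at −0.10. Mitochondrial chaperones had 1 of 11 that rose, the protease LONP1 at 0.23 (adjusted p = 0.00458 in edgeR), and 2 that fell. These were CLPP, a protease subunit, at −0.32 (adjusted p = 0.0258 in edgeR, kept without replicate 2 of either group or replicate 3 of I/R+DMSO), and GRPEL1, the exchange factor of mitochondrial HSP70, at −0.19 (adjusted p = 0.0377 in edgeR, kept without I/R+DMSO replicate 1 or 4). CLPP was at −0.20 with the gene length correction. The calls of LONP1, CLPP, GRPEL1, PDCL3 and PFDN6 were lost in all 3 limma fits on FPKM.

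Endoplasmic reticulum (ER) chaperones served as a comparison, since they are known to answer mainly to the unfolded protein response of the ER. Of 17 tested, 8 rose and none fell (47.1% called, against 18.2% of all genes), with a median log2 fold change of 0.21. HSPA5 (BiP), the HSP70 of the ER, rose from 1574 ± 133 to 2139 ± 63.6 CPM (log2 fold change 0.44, adjusted p = 0.00344 in edgeR). HSP90B1 (GRP94), the HSP90 of the ER, rose from 966 ± 104 to 1237 ± 86.3 CPM (log2 fold change 0.36, adjusted p = 0.0218 in edgeR), a call lost without replicate 4 of I/R+Rk2 and without replicate 2 or 3 of I/R+DMSO. The motif pair was in the windows of 2 of 16 ER chaperone genes (12.5%) and the full element in 0. Over all genes with a window the shares were 16.2% and 0.608%. Of 81 chaperone genes outside the 10, 26 had a pair and 6 a full element, but these include genes listed as HSF1 targets. Nothing is read from the difference.

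**Figure D4:**
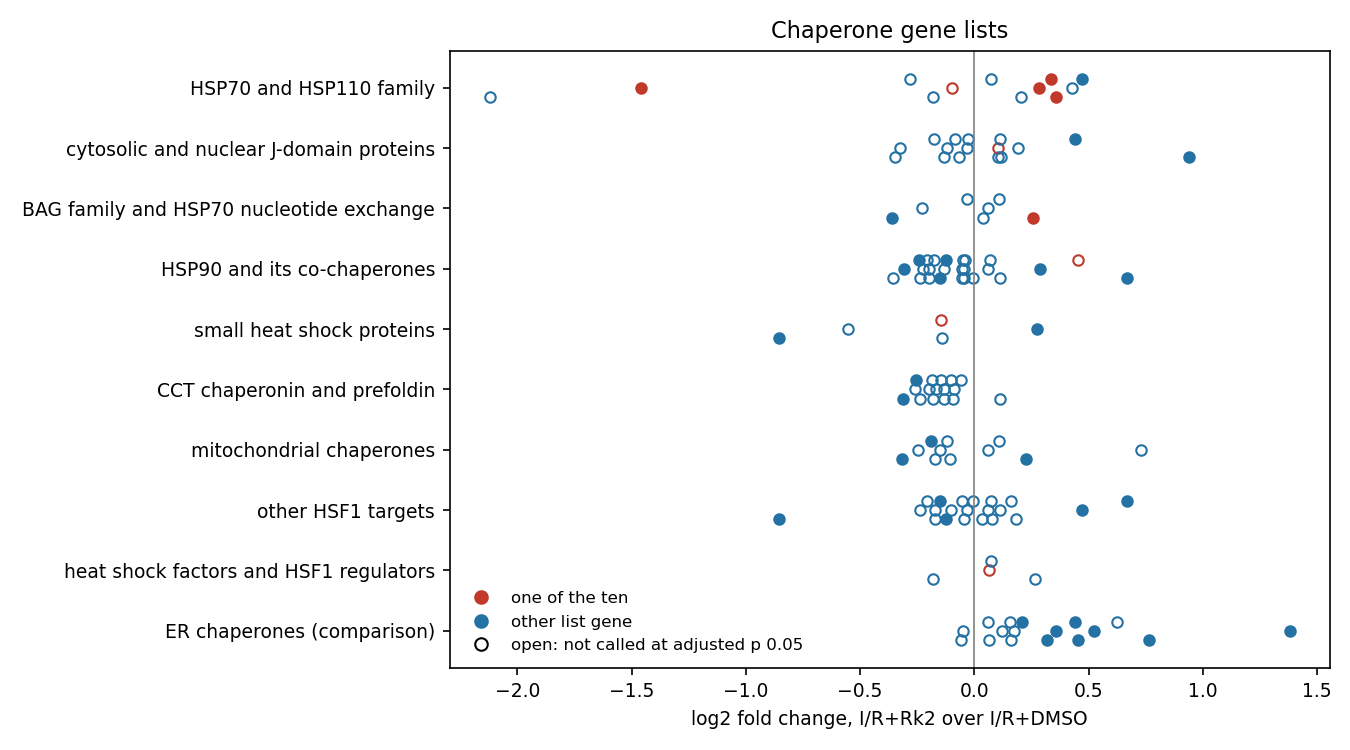
Log2 fold change (I/R+Rk2 over I/R+DMSO) in the edgeR fit of every tested gene in each chaperone list. The CCT and prefoldin genes lie mostly below 0 (15 of 16), and the ER chaperones mostly above it (15 of 17).

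Replicates of the same group were compared with the Rk2 difference removed, by centring each gene on its group means. Within I/R+DMSO, HSPA6 varied in the same direction as HSPA1A and HSPA1B. In I/R+Rk2 replicates 1 to 4, HSPA6 lay at −0.12, 0.32, 0.15 and −0.34 on the log2 scale. HSPA1A lay there at −0.01, −0.01, 0.02 and 0.003 and HSPA1B at −0.03, −0.01, 0.04 and −0.001, so the directions did not all match. Over the 8 libraries Pearson's r of these log2 deviations was 0.81 for HSPA6 with HSPA1B, 0.78 with HSPA1A, 0.75 with BAG3 and 0.75 with HSPB1. It was 0.52 with HSPH1, 0.22 with HSF1, 0.16 with HSPA8, 0.05 with DNAJB1 and −0.14 with HSP90AA1. The points share libraries, depth and scaling, and the values are a description with no test. I/R+DMSO replicates 1 and 4 lay furthest out for HSPA6, at 0.72 above and 0.82 below the group mean on the log2 scale. Without I/R+DMSO replicate 1, r was 0.56 with HSPA1A, 0.48 with HSPB1, −0.07 with HSPH1 and −0.75 with HSPA8. Without I/R+DMSO replicate 4, r with DNAJB1 was −0.73. HSPA1A and HSPA1B followed each other at 0.98, and HSPH1 ran with HSPA1A (0.84) and against HSP90AA1 (−0.76). On FPKM, r of HSPA6 with HSP90AA1 was −0.79 and HSPH1 with HSPA8 0.32, against −0.14 and 0.82 on counts. The genes most like HSPA6 by this measure, of 11360 with a mean of at least 50 counts, were PEF1 (0.979), LY6G5B (0.975) and SHC2 (0.974), while the median gene had an r of 0.01 and 101 genes exceeded 0.9. None of these 3 was called between the groups, with log2 fold changes of −0.12 (adjusted p = 0.356), −0.08 (adjusted p = 0.881) and 0.17 (adjusted p = 0.169) in edgeR. Of the 10 most alike, GDF15 (r = 0.970) rose, with 0.70 (adjusted p = 0.00133 in edgeR), and TRIAP1 (r = 0.966) fell, with −0.22 (adjusted p = 0.0455 in edgeR), both named after their values were seen.

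**Figure D5:**
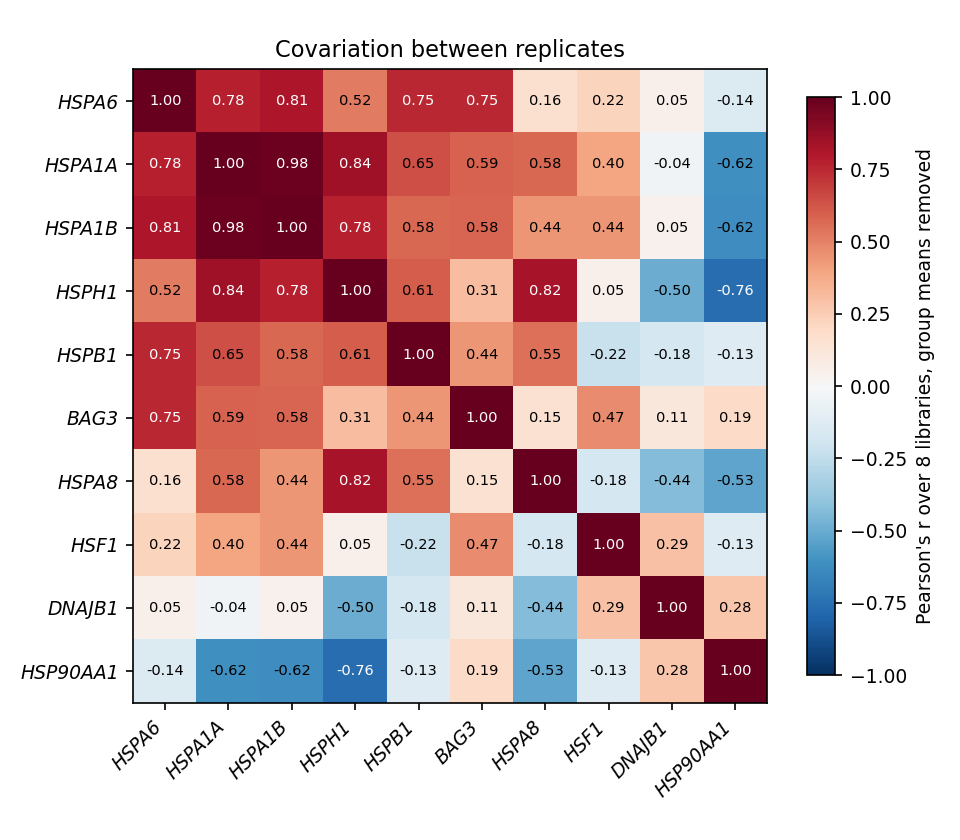
Pearson's r between the 10 genes over 8 libraries, computed on log2 CPM deviations from the group means. HSPA1A and HSPA1B, nearly identical copies whose reads are hard to tell apart, stand at 0.98. HSPA6 is positive with both (0.78 and 0.81), and HSP90AA1 is negative with HSPH1 (−0.76).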

How the data were processed

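RNA-seq was done by the authors on 8 libraries of HuH7 cells, from 250 ng of total RNA with the MGIEasy kit. The submitters' processing notes name FastQC 0.11.5, HISAT2 2.2.1, StringTie 1.3.3 and hg38. The read counter and annotation are not given in the sources used here. The authors deposited raw counts for 15767 genes, not normalized, and FPKM values for 19799 genes, normalized for length and depth. Symbols turned into dates (22 and 27, 0.111% of counts) were left out. Groups followed the treatment labels. Columns of other samples numbered 0.

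Counts were fitted with edgeR 4.0.16 (R 4.3.3), TMM scaling and the quasi-likelihood test with group as the term, on 12910 genes that reached 10 counts in 4 or more libraries (99.96% or more of each library's counts), with Benjamini-Hochberg adjustment and a threshold of 0.05. The biological coefficient of variation was 17.1%. Chi-square over degrees of freedom between replicates was 15.9 to 28.8, so none were repeats of 1 library. In simulated data of this comparison over 12910 genes, 161 of 200 genes changed by 1 on the log2 scale were recovered, with 11 false calls. Smaller changes, like most of those described here, were not simulated. Alternatives were DESeq2 1.42.0, other scalings and filters, limma 3.58.1 on log2 FPKM with 1 or 0.1 added (genes averaging 0.5 FPKM or more, or unfiltered for the former), a replicate block, a gene length correction (loess, span 0.5), summed HSPA1A and HSPA1B, and leaving out each library. Covariation on FPKM was chosen after seeing the data. Samples were not paired by replicate number in the main fit. Sequences came from RefSeq (GRCh38.p14) and gene models from GENCODE 29. The named genes were the 10, the HSP70 and HSP110 list, HSP90AB1, HSF2 and HSBP1, HSPA5 and HSP90B1 for the ER list, in each other chaperone list the 2 called genes with the smallest p in each direction, and the 3 genes most like HSPA6. HSF4, marker genes, GDF15 and TRIAP1 were named after its values were seen. The members and lists were chosen with earlier results of these data known.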

Additional observations from a re-analysis of the deposited data

Results flagged for a closer look

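The 80 group values of the named genes were screened for a single library whose gap to its nearest neighbour was a larger part of the group's range than Dixon's critical value for 4 samples, which chance gives in about 5% of groups, and 2 stood out. HSPA2 was 50.9 CPM in I/R+DMSO replicate 2 and 3.77 to 4.97 in the other 3 I/R+DMSO libraries. SGTA was 228 CPM in I/R+DMSO replicate 4 and 248 to 249 in the other 3.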

How the results depend on the processing

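HSPA6 was lower in I/R+Rk2 under every setting run. Its log2 fold change was −1.67 to −1.18 with 1 library left out and −1.49 to −1.12 otherwise, but it was not past the threshold without I/R+Rk2 replicate 1 or 4 (edgeR) or with limma on log2(FPKM + 1) unfiltered. HSP90AA1 was past it with DESeq2, all 3 limma fits and without I/R+DMSO replicate 2. The log2 fold change of HSPA8 was −0.0037 and that of HSPB1 −0.0050 with the length correction. Between 4 and 6 of the 10 were called under each setting that kept all 10. With HSPA1A and HSPA1B summed, 3 of 8 were called, 2 higher and 1 lower. Over all genes the calls ran from 970 of 15729 (limma on log2(FPKM + 1) unfiltered) to 2985 of 12910 (DESeq2). Nothing is read from the members' counts, because this contrast was in view when they were chosen. The cause of these differences was not tested. Adding HSPA7 to HSPA6 was not run because HSPA7 is in neither table.

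With limma on log2(FPKM + 1), log2(FPKM + 0.1) and log2(FPKM + 1) unfiltered, all genes called were 1123, 1106 and 970 (2352 with edgeR), of them higher 812, 798 and 706 (1417) and lower 311, 308 and 264 (935). Chaperone genes outside the 10 called were 7, 7 and 5 (17), higher 3, 3 and 3 (7) and lower 4, 4 and 2 (10). DESeq2 called 26 of them, 17 lower, and library size alone called 6 lower. With 1 library left out, all genes called ran from 1293 to 2287, higher from 863 to 1418 and lower from 430 to 885, and the chaperones from 8 to 18, higher from 5 to 9 and lower from 3 to 10. The lowest of these all-gene counts were without I/R+Rk2 replicate 4, and the total was 1467 without replicate 2 and 1510.0 without replicate 3. With a replicate block, edgeR called 1815 genes (1143 higher, 672 lower) and 15 chaperones outside the 10 (7 higher, 8 lower), HSPA6 was at −1.38 and its distance to the other 9 was −1.63. Same-numbered samples had correlations of −0.01 to 0.08, and 1 of 4 numbers correlated best with its own. These values show no shared effect of the number, but the labels do not say whether same-numbered samples were handled together. HSP90B1, CLPP, GRPEL1, PDCL3 and CRYAB were not called with the block.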

Other observations

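On FPKM, HSPA4L was 2.07 in I/R+DMSO replicate 2 and 13.1 to 15.9 in the other 7 libraries, whereas its CPM there was 26.8 against 36.7 to 49.7. SGTA was 115 FPKM in I/R+DMSO replicate 1 and 104 in I/R+Rk2 replicate 1, and 73.5 to 90.2 in the other 6, although its CPM in those 2 libraries was 249 and 214.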
